A study of Mus musculus with 8 samples.

Results

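The genes described are those of Wnt signalling at and near the cell surface, measured in lymph node stromal cells after knockdown of Eif4g3. They were chosen by name: every non-control probe whose gene name on the array begins with Wnt, Fzd, Sfrp, Dkk or Dvl and a digit, or is Lrp5, Lrp6, Axin1, Axin2, Wif1 or Ctnnb1. This gave 46 genes with 61 probes, of 27575 genes with 41174 probes on the array, and 31 of the 46 were bright enough to be tested, of 14485 genes tested in all. Stromal cells of BALB/c lymph nodes, kept in culture, were transfected with 400 pmol of either an Eif4g3 siRNA or a control siRNA in a lipid reagent and were collected 48 h later. Eif4g3 encodes a scaffold protein of the eIF4F translation initiation complex. RNA was taken from the whole lysate (total RNA, 4 arrays) and from the pooled heavy fractions of a sucrose gradient, where mRNAs carry many ribosomes (heavy polysome RNA, 4 arrays). Each array compared Eif4g3 siRNA RNA, in Cy5, with control siRNA RNA of the same fraction, in Cy3. Cells were pooled from 7 plates per siRNA before the gradient, and the labels do not say whether replicates were separate cultures, so p-values may measure technical spread only. Dyes were never swapped, so a dye bias of a probe and a change of its transcript cannot be told apart within a fraction.

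Wnt proteins are lipid-modified secreted ligands that bind Frizzled receptors (Fzd) on neighbouring cells. With the co-receptors Lrp5 and Lrp6, a bound Frizzled recruits Dishevelled (Dvl) and Axin to the membrane, which stops the degradation of beta-catenin (Ctnnb1), a co-activator of TCF and LEF transcription factors. Other Wnt signals run through Frizzled and Dishevelled without beta-catenin and act on planar polarity and calcium. Secreted Frizzled-related proteins (Sfrp) and Wif1 bind Wnts outside the cell, and Dickkopf proteins (Dkk) act mainly at Lrp5 and Lrp6. In fibroblast-like stroma this system takes part in the exchange of signals with neighbouring cells.

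Promoter sequence was matched for 31 of the 46 members in the RefSeq table of GRCm38.p6, which gave 35 windows of the 250 bases before a transcription start. Of the 8 members that passed a test, 4 had a window (Dkk2, Sfrp2, Wnt11 and Wnt9a), and Axin1, Dkk3, Fzd3 and Fzd6 had none. These are shown because 3 of these genes were higher and 1 was lower in heavy polysome RNA after knockdown. Sequences are on the plus strand, which is the gene's strand for all of these genes. Capitals mark matches, on either strand, to the TCF and LEF core CTTTGA, the GC box GGGCGG and the TATA box TATAAA.
Dkk2, chr3:132085042-132085291: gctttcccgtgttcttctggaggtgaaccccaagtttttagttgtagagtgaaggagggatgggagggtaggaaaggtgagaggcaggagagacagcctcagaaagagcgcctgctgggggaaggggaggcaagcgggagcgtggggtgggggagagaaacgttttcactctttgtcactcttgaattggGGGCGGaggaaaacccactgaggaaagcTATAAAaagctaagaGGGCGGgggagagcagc
Wnt9a, chr11:59306680-59306929: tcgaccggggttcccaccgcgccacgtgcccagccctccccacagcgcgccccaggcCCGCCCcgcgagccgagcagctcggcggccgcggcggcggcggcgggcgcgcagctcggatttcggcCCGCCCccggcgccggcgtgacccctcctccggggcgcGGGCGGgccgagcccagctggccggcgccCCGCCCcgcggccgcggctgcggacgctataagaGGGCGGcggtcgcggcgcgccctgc
Wnt11, chr7:98834862-98835111: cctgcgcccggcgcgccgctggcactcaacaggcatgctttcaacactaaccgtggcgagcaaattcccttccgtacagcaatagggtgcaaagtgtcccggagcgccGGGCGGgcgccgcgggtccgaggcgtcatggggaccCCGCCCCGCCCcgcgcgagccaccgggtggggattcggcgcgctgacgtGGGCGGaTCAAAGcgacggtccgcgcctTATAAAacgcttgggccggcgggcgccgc
Sfrp2, chr3:83766071-83766320: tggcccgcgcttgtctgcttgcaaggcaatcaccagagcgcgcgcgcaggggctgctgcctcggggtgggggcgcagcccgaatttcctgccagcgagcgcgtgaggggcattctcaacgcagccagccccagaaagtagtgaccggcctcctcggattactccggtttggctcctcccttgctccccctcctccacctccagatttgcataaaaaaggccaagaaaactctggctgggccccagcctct

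The Dkk2 window held 2 GC boxes and 1 TATA box, 32 bases before the start. Wnt9a had 5 GC boxes and neither of the other motifs. Wnt11 had 4 GC boxes, 2 of which overlap by 1 base, with 1 TCF and LEF core on the minus strand and 1 TATA box 29 bases before the start. A second Wnt11 window (chr7:98838595-98838844) and the Sfrp2 window held none of the 3 motifs. GC content was 55.6% for Dkk2, 84.4% for Wnt9a, 70.8% for the first Wnt11 window and 63.6% for Sfrp2, against a median of 52.4% over 32851 windows. The GC box was in 27 of 35 member windows and in 32.7% of all windows, the TATA box in 6 of 35 and 12.4%, and the TCF and LEF core in 4 of 35 and 13.8%. These matches are a description of the letters only.

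Detection was read from the mark of the scanner software for signal well above background, over 16 readings per probe (8 arrays, 2 channels). At least 1 probe passed in all 16 readings for 19 members, and no probe passed in any reading for 11 members. Of 19 Wnt ligands, 10 were tested: Wnt2, Wnt5b, Wnt9a, Wnt10a and Wnt11 passed in all 16 readings, Wnt4 in 15, Wnt5a and Wnt7b in 14, Wnt6 in 13 and Wnt16 in 8. Wnt2b, Wnt3, Wnt3a, Wnt7a, Wnt8a, Wnt8b and Wnt10b passed in none, and Wnt1 (5) and Wnt9b (2) stayed below the minimum for testing. Of 10 Frizzled genes, 9 were tested, with Fzd10 in no reading. Both Lrp co-receptors and all 3 Dishevelled genes were tested. Of the 9 secreted antagonists, Sfrp1, Sfrp2 and Dkk2 passed in all 16 readings, Dkk3 in 13 and Sfrp4 in 11. Dkk1, Dkk4 and Wif1 passed in none and Sfrp5 in 3. Axin1 and Ctnnb1 passed in all 16, whereas Axin2, a feedback inhibitor and known target gene of the pathway, passed in 2 and was not tested. A probe that is not well above background gives no more than an upper bound for its transcript.

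**Figure D1:**
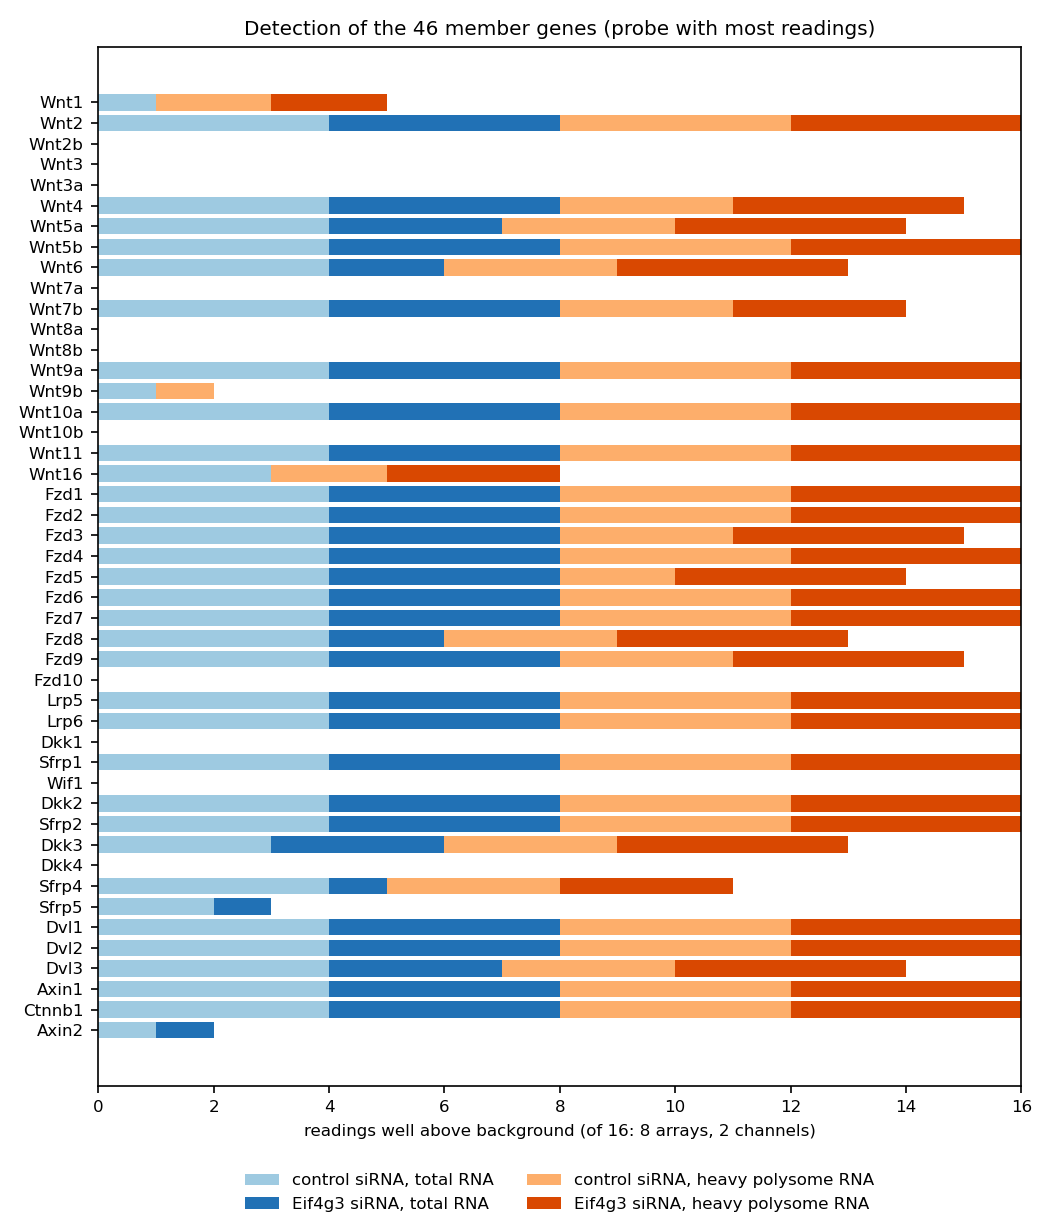
Readings well above background for each of the 46 member genes, out of 16 (bars, for the probe with the most readings), split by siRNA and RNA fraction, 4 arrays each. The 19 genes with full bars include Wnt2, Fzd1, Lrp5, Sfrp1 and Ctnnb1, and 11 genes have no bar.

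Values from here on are log2 ratios, with Eif4g3 siRNA over control siRNA, as mean ± SD over 4 arrays (n = 4), with Benjamini-Hochberg adjusted p from limma over all 14485 genes and a threshold of 0.05. Eif4g3 itself was lower on all 8 arrays, by -2.07 ± 0.29 in the 4 total RNA arrays and -2.46 ± 0.50 in the 4 of heavy polysome RNA. Heavy polysome arrays 1 and 3 and total RNA array 4 correlated least with the other arrays of their fraction (mean r across genes of 0.289, 0.318 and 0.326). Heavy polysome arrays 2 and 4 correlated most (0.883, next highest pair 0.734), so they were also averaged and used as 1 replicate. All 10 fibroblastic stromal markers, such as Pdpn, Thy1 and Col1a1, passed in all 16 readings. The endothelial markers Pecam1 and Lyve1, the leukocyte genes Ptprc, Itgam and Adgre1, the lymphocyte genes Cd8a, Cd79a and Ms4a1, and epithelial Cdh1 passed in none, while the macrophage genes Cd68, Csf1r, Trem2 and Lyz2 passed in all 16. In bulk RNA, fewer cells of a type and less RNA per cell cannot be told apart.

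Transcript abundance was compared in total RNA. There Axin1 was the 1 member of 31 that passed, and it was lower, where 4.38% of all genes tested passed (1.67% higher, 2.71% lower). Axin1 encodes the scaffold of the beta-catenin destruction complex. Its ratios on total RNA arrays 1 to 4 were -0.99, -0.39, -0.82 and -0.66 (probe A_52_P197007, mm8 chromosome 17, 25921687 to 25922574). It was lower on each of the 4 arrays, 1.64-fold on average (-0.71 ± 0.26, 95% interval -1.07 to -0.36, adjusted p = 0.0405). In heavy polysome RNA its ratios were 0.29, -0.62, -0.46 and -0.64, so array 1 went up where the other 3 went down (-0.36 ± 0.44, adjusted p = 0.196). The total RNA call failed when any 1 total RNA array, or array 2 or 4 of heavy polysome RNA, was left out (adjusted p 0.0618 to 0.148), and without heavy polysome array 1 Axin1 passed in heavy polysome RNA as well (0.0246). It was also lost with no filter on dim probes (0.0709) and with heavy polysome arrays 2 and 4 as 1 replicate (0.0623). Over the 31 tested members, 12 means were above 0 and 19 below, with a median of -0.058 against -0.040 over all genes. With the deposited log2 ratios, centred on their medians, 5 members were higher and 1 lower in total RNA (769 and 714 of all genes, against 242 and 392 here).

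In heavy polysome RNA, 7 of 31 members passed, where 8.91% of all genes tested did. Higher were the ligand genes Wnt9a and Wnt11, the receptor genes Fzd3 and Fzd6 and the secreted Dkk2 and Dkk3 (6 members, where 4.87% of all genes were higher), and Sfrp2 was lower (1 member, where 4.03% of all genes were lower). The median over the 31 members was 0.062 against 0.016 over all genes, with 17 means above 0.

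Of the ligands, Wnt11, known for its part in cell movements in the embryo, gave 0.54, 0.58, 1.69 and 0.94 on heavy polysome arrays 1 to 4 (probe A_51_P503131, mm8 chromosome 7, 98728667 to 98728727). Every array was above 0, with array 3 the highest, and the mean rise was 1.92-fold (0.94 ± 0.53, 95% interval 0.45 to 1.43, adjusted p = 0.0290). In total RNA it gave -0.13, 0.73, 0.89 and 0.99, with array 1 alone below 0 (0.62 ± 0.51, adjusted p = 0.136). This call failed with total RNA array 2, or array 2, 3 or 4 of heavy polysome RNA, left out (adjusted p 0.0530 to 0.105). Wnt9a, a ligand with roles in skeletal and joint development, gave 0.61, 0.67, 0.58 and 0.33 in heavy polysome RNA (probe A_51_P375453, mm8 chromosome 11, 59149389 to 59149448) and 0.35, 0.49, 0.20 and 0.37 in total RNA. All 8 values were above 0. It rose 1.46-fold in heavy polysome RNA (0.55 ± 0.15, 95% interval 0.35 to 0.75, adjusted p = 0.00799) and had a mean of 0.35 ± 0.12 in the other fraction (adjusted p = 0.0569). This total RNA value passed without heavy polysome array 1 (0.0448) or 3 (0.0474). A second Wnt9a probe, A_52_P618971, passed in 0 of 16 readings and gives no check.

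The other 8 tested ligands did not pass in either fraction. Wnt2, a ligand known from lung development, had the next highest mean of the ligands in heavy polysome RNA after Wnt11 and Wnt9a (0.40 ± 0.27, adjusted p = 0.0740, against 0.25 ± 0.24 in total RNA). Wnt10a was at 0.054 ± 0.37 (total RNA) and 0.39 ± 0.28 (heavy polysome RNA). Wnt4, which acts in kidney and gonad development, was at -0.44 ± 0.43 (total RNA) and -0.25 ± 0.37 (heavy polysome RNA), with arrays 1 and 3 lowest in total RNA. Wnt5a and Wnt5b, ligands mostly linked to signals without beta-catenin, were at -0.038 ± 0.076 and 0.089 ± 0.12 and at -0.055 ± 0.092 and -0.080 ± 0.12, in that order of fractions, and a second Wnt5b probe, A_52_P85805, gave -0.11 ± 0.10 and -0.066 ± 0.16. Wnt6 (-0.071 ± 0.091 and 0.062 ± 0.13) and Wnt7b (0.085 ± 0.072 and -0.025 ± 0.17) were likewise near 0. Wnt16 gave -0.085 ± 0.12 and -0.019 ± 0.11, but its Cy5 signal in total RNA was not well above background on any array, so that ratio is no more than a bound.

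Of the receptors, Fzd6 and Fzd3, which are known for planar cell polarity, were both higher in heavy polysome RNA. Fzd6 gave 0.88, 0.60, 1.096 and 0.47 on arrays 1 to 4 (probe A_52_P217710, mm8 chromosome 15, 38867635 to 38867694), and 0.44, 0.14, 0.81 and 0.48 in total RNA. All 8 values were above 0, and the rise was 1.69-fold in heavy polysome RNA (0.76 ± 0.28, 95% interval 0.47 to 1.06, adjusted p = 0.00954) against 0.47 ± 0.27 in total RNA (adjusted p = 0.0743, or 0.04997 without heavy polysome array 3). Fzd3 gave 0.30, 0.64, 0.40 and 0.60 in heavy polysome RNA (probe A_51_P190863, mm8 chromosome 14, 64156616 to 64156676) and 0.69, 0.25, 0.65 and 0.0014 in total RNA, where array 4 was next to 0. It rose 1.40-fold in heavy polysome RNA (0.49 ± 0.17, 95% interval 0.20 to 0.77, adjusted p = 0.0430) and had a mean of 0.40 ± 0.33 in the other fraction (adjusted p = 0.102). The Fzd3 call failed with array 2 or 3 of total RNA, or array 2, 3 or 4 of heavy polysome RNA, left out (adjusted p 0.0598 to 0.162). A second Fzd3 probe, A_52_P168231, gave means of 0.055 ± 0.22 (total RNA) and 0.25 ± 0.40 (heavy polysome RNA). A probe that the array names D930050A07Rik but RefSeq assigns to Fzd3, well above background in all 16 readings, gave 0.10 ± 0.11 and 0.20 ± 0.17, so the size of the Fzd3 change differed between probes.

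The other Frizzled genes and both co-receptors did not pass. Fzd5 (0.22 ± 0.15 and 0.24 ± 0.11, total RNA first) and Fzd9 (0.26 ± 0.19 and 0.27 ± 0.092) were above 0 on all 8 arrays. A second Fzd5 probe, A_51_P166456, well above background in 13 of 16 readings against 14 for the first, took both signs in each fraction (-0.050 ± 0.091 and 0.037 ± 0.25). Fzd4, the receptor of the retinal vascular ligand Norrin, was below 0 on all 8 (-0.32 ± 0.44 and -0.34 ± 0.24), with total RNA array 4 and heavy polysome array 1 far below the rest. Fzd1 (-0.085 ± 0.27 and -0.30 ± 0.12) was below 0 on all 4 heavy polysome arrays and Fzd8 (-0.29 ± 0.19 and -0.19 ± 0.41) on all 4 total RNA arrays. Fzd2 (-0.058 ± 0.18 and 0.096 ± 0.27) and Fzd7 (-0.13 ± 0.40 and -0.15 ± 0.20) took both signs in each fraction, as did a second Fzd7 probe, A_51_P142107 (-0.061 ± 0.12 and -0.065 ± 0.25). Lrp5 gave -0.16, -0.25, -0.089 and -0.021 on arrays 1 to 4 of total RNA, then -0.41, -0.30, 0.47 and -0.20 on the 4 of heavy polysome RNA (probe A_51_P364168, mm8 chromosome 19, 3584870 to 3584930). It was below 0 on 7 of 8 arrays, with heavy polysome array 3 the exception (-0.13 ± 0.099 and -0.11 ± 0.40, adjusted p = 0.628 and 0.655). Lrp6 gave 0.054, -0.14, -0.12 and -0.073 in total RNA, against -0.32, -0.035, -0.18 and -0.14 in the polysome fraction (probe A_51_P169401, mm8 chromosome 6, 134416031 to 134416090). It too was below 0 on 7 of 8 arrays (-0.070 ± 0.088 and -0.17 ± 0.12, adjusted p = 0.680 and 0.246). A dim probe that the array names C030016K15Rik but RefSeq assigns to Lrp6 was well above background in 7 of 16 readings. It gave 0.055 ± 0.23 and 0.095 ± 0.071, so the sign differed between probes. The 95% intervals in heavy polysome RNA, -0.42 to 0.19 for Lrp5 and -0.35 to 0.019 for Lrp6, hold 0 and small changes in either direction.

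**Figure D2:**
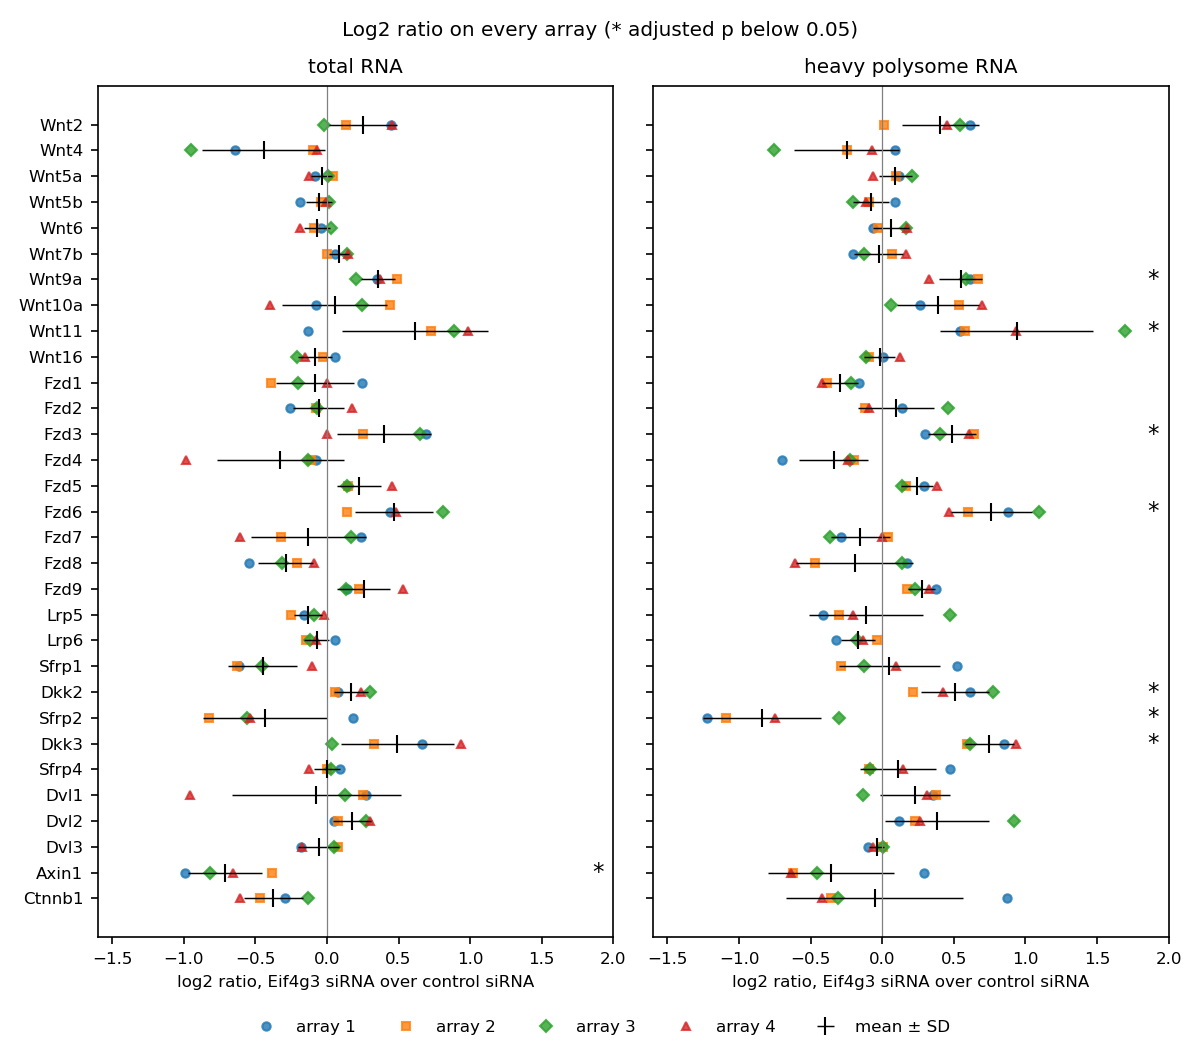
Log2 ratio (Eif4g3 siRNA divided by control siRNA) for the 31 tested members on each array (points), with mean ± SD over 4 arrays (bars), in total RNA (left) and heavy polysome RNA (right). Stars mark Axin1 in total RNA and Wnt9a, Wnt11, Fzd3, Fzd6, Dkk2, Sfrp2 and Dkk3 in heavy polysome RNA. Ctnnb1 and Axin1 on heavy polysome array 1 lie apart from the other 3 arrays.

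Among the secreted antagonists, Sfrp2 fell while Dkk2 and Dkk3 rose. Sfrp2, a Wnt-binding protein made by fibroblasts, gave -1.22, -1.09, -0.30 and -0.75 on heavy polysome arrays 1 to 4 (probe A_51_P520849, mm8 chromosome 3, 83859869 to 83859928). All 4 were below 0, array 3 least, and the mean was 1.79-fold lower (-0.84 ± 0.41, 95% interval -1.25 to -0.43, adjusted p = 0.0225). In total RNA it gave 0.18, -0.82, -0.56 and -0.54, with array 1 above 0 (-0.43 ± 0.43, adjusted p = 0.199). The call was lost without heavy polysome array 1, 2 or 4 (adjusted p 0.0585 to 0.0909). Dkk2, which binds the Lrp co-receptors, gave 0.62, 0.22, 0.77 and 0.43 in heavy polysome RNA (probe A_51_P241068, mm8 chromosome 3, 132116699 to 132116758) and 0.078, 0.057, 0.30 and 0.24 in total RNA. All 8 values were above 0, and it rose 1.42-fold in heavy polysome RNA (0.51 ± 0.24, 95% interval 0.27 to 0.74, adjusted p = 0.0190) against 0.17 ± 0.12 in total RNA (adjusted p = 0.376). Dkk3, a divergent member of its family, gave 0.85, 0.59, 0.61 and 0.94 in heavy polysome RNA (probe A_52_P220176, mm8 chromosome 7, 111908495 to 111908554) and 0.66, 0.33, 0.037 and 0.94 in total RNA. All 8 were above 0 here too, with a rise of 1.68-fold in heavy polysome RNA (0.75 ± 0.17, 95% interval 0.43 to 1.06, adjusted p = 0.0132) against 0.49 ± 0.39 in the other fraction (adjusted p = 0.0784). Its Cy3 signal was well above background on 3 of 4 arrays in each fraction, and its Cy5 signal on 3 of 4 in total RNA and 4 of 4 in heavy polysome RNA. Without heavy polysome array 4 the calls for Dkk2 (0.0693) and Dkk3 (0.0718) were lost. Sfrp1 (-0.45 ± 0.24 in total RNA, adjusted p = 0.0983, or 0.0407 when heavy polysome array 1 was left out; 0.049 ± 0.35 for heavy polysome RNA) and Sfrp4 (-0.0010 ± 0.091 and 0.11 ± 0.27) did not pass.

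Of the 7 heavy polysome calls, those of Fzd6 and Wnt9a passed without each single array (highest adjusted p 0.0336 and 0.0448). With heavy polysome arrays 2 and 4 as 1 replicate, 3 members passed, Dkk2, Fzd6 and Wnt9a (434 of all genes, against 1290 in the main fit). Fitted without the total RNA arrays, heavy polysome RNA kept Dkk3 and Fzd6 (378 of all genes). Slide as a random block gave 11 members, with 2592 of all genes. With no filter on dim probes the calls for Fzd3 (0.0608) and Wnt11 (0.0611) were lost. Centring arrays on the median of all spots in place of loess gave 0 calls in either fraction and put the median of all genes at -0.78 in total RNA, against 0.00 in the polysome fraction. Relative to those medians, each of the 8 called members kept its direction in both fractions, and of 31 tested members 23 did so in total RNA, against 29 in the polysome fraction. The share of all genes that did so was not counted. A background offset pulls ratios of dim probes toward 0, which lies above -0.78, so in total RNA this check cannot decide for them. There Wnt16, Sfrp4, Wnt6 and Dvl3, all with loess means below 0, lay 0.78, 0.72, 0.60 and 0.55 above the median.

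Markers of the cells moved in heavy polysome RNA too. Of the 10 stromal markers 4 were lower: Pdgfra (-0.65 ± 0.13), Pdgfrb (-0.47 ± 0.17), Col1a1 (-0.67 ± 0.36) and Col1a2 (-0.42 ± 0.092), with a median of -0.44 over the 10. That is 40% of the list, where 4.03% of all genes tested were lower and 8.91% passed either way. The other 6 did not pass: Vcam1 (-0.51) and Col3a1 (-0.49) were below 0, and Vim (0.55, and 0.71 in total RNA), Pdpn (0.25), Ltbr (0.12) and Thy1 (0.10) above it. Of 7 macrophage markers, 4 were tested and Trem2 was lower (-1.39 ± 0.71), which is 25% of those tested. Cd68 (-0.50), Csf1r (-0.35) and Lyz2 (0.048) did not pass. The log2 of the summed signal of all 7 ran from 10.45 to 11.66 in control siRNA and from 9.80 to 11.21 in Eif4g3 siRNA heavy polysome RNA. These ranges overlap, with both ends lower in Eif4g3 siRNA. Both siRNAs share each array, so the ranges leave out that pairing, and differences per array were not taken. In total RNA Col1a2 and Csf1r were the markers that passed, both lower, where 2.71% of all genes tested were lower. The part of these cells in the member values was not tested.

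Of the intracellular members other than Axin1, none passed in either fraction. Ctnnb1, beta-catenin itself, is read by 10 spots of 1 probe (probe A_51_P272046, mm8 chromosome 9, 120808358 to 120808417), which gave -0.30, -0.47, -0.13 and -0.61 on arrays 1 to 4 of total RNA, then 0.87, -0.36, -0.31 and -0.42 on the 4 of heavy polysome RNA. It was below 0 on 7 of 8 arrays, and heavy polysome array 1 stood apart (-0.38 ± 0.21 and -0.054 ± 0.62, adjusted p = 0.299 and 0.895). Without heavy polysome array 1, total RNA passed (0.0440), since the fractions share an estimate of the spread, and heavy polysome RNA was at -0.36 (adjusted p = 0.0758). The SD among its 10 spots within an array ran from 0.028 to 0.48. A second probe, A_52_P424585, gave -0.15 ± 0.49 and -0.20 ± 0.30, and another, A_52_P472397, 0.30 ± 0.18 and 0.17 ± 0.097, above 0 and well above background in 10 of 16 readings. Dvl1 (-0.076 ± 0.59 and 0.23 ± 0.24), Dvl2 (0.17 ± 0.13 and 0.38 ± 0.36) and Dvl3 (-0.058 ± 0.14 and -0.039 ± 0.052), the Dishevelled adaptors, did not pass, and Dvl2 was above 0 on all 8 arrays. A second Dvl1 probe, A_51_P504503, well above background in 15 of 16 readings, was below 0 on all 4 total RNA arrays (-0.25 ± 0.21, against 0.18 ± 0.24 in the polysome fraction), where the first was below 0 on array 4 alone.

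By sign, 8 members were above 0 on all 4 total RNA arrays (13.2% of all genes were) and 11 on all 4 heavy polysome arrays (17.2%). Dkk2, Dkk3, Dvl2, Fzd3, Fzd5, Fzd6, Fzd9 and Wnt9a were above 0 on all 8 arrays (8 members, against 6.15% of all genes). For Fzd3 and Fzd5 this holds for the brightest probe and not for the second. Under median centring the total RNA means of these 8 ran from -0.43 (Dvl2) to 0.30 (Dkk3), and all but that of Dkk3 were below 0. All lay above the median of all genes there (-0.78), as did dim members with loess means below 0, such as Wnt16. Below 0 were 7 members on all total RNA arrays (21.5%), 4 on all heavy polysome arrays (14.7%) and 1, Fzd4, on all 8 (7.85%).

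**Figure D3:**
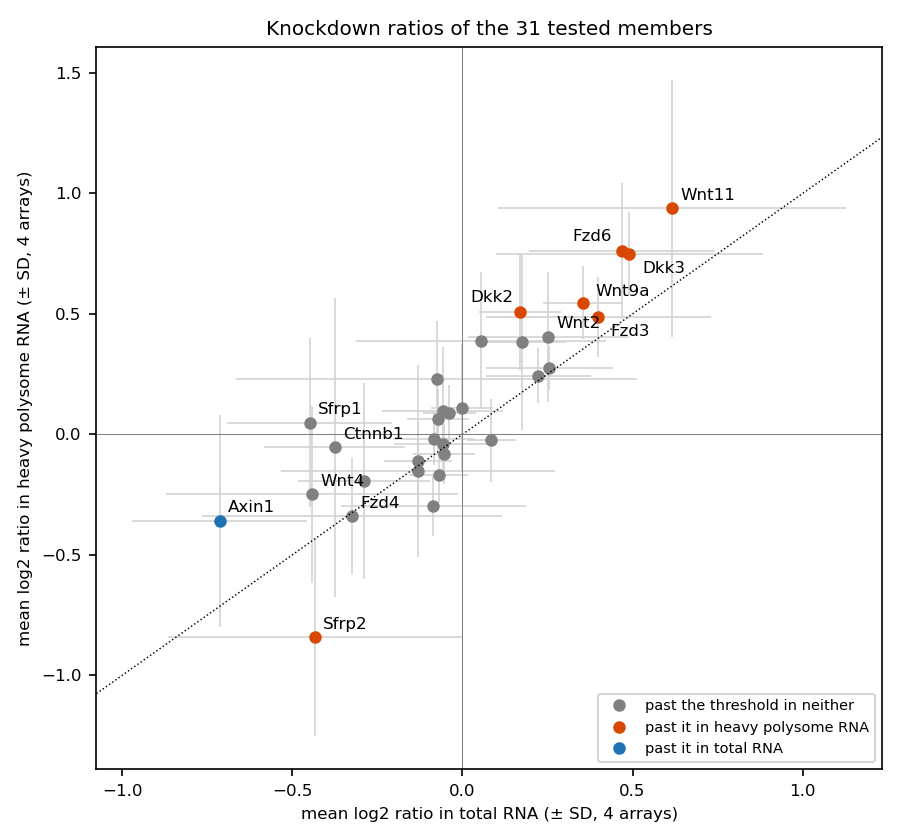
Mean log2 ratio in total RNA (x axis) against that in heavy polysome RNA (y axis) for the 31 tested members, ± SD over 4 arrays, with a dotted line of equal values. The 6 members called higher in heavy polysome RNA lie at the upper right, from 0.49 (Fzd3) to 0.94 (Wnt11) on the y axis, and all lie above the line. They were picked by their y values, which favours a place above it, and none passed for the difference between fractions.

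The difference between fractions asks whether the ratio in heavy polysome RNA departed from that in total RNA. A dye bias that is equal on all arrays cancels in it. By limma, 0 of 31 members passed, as did 0% of all genes tested. The count of all genes at an unadjusted p below 0.05 was not taken, and 2 members were below it. These were Sfrp1, with a difference of 0.50 (95% interval 0.056 to 0.94, adjusted p = 0.847), and Dkk2, with 0.34 (0.0076 to 0.67, adjusted p = 0.847). On total RNA arrays 1 to 4 Sfrp1 gave -0.61, -0.63, -0.45 and -0.10 and on heavy polysome arrays 0.52, -0.29, -0.13 and 0.092 (probe A_51_P352296, mm8 chromosome 8, 24913185 to 24913244). All 4 total RNA values were below 0, heavy polysome arrays 1 and 4 were above it, and arrays 2 and 3 of that fraction fell within the total RNA range. The second Sfrp1 probe, A_52_P564706, gave a difference of 0.20. For the called members other than Dkk2 the difference was 0.35 for Axin1 (-0.15 to 0.86), 0.32 for Wnt11 (-0.37 to 1.01), 0.29 for Fzd6 (-0.13 to 0.71), 0.26 for Dkk3 (-0.19 to 0.70), 0.19 for Wnt9a (-0.092 to 0.48), 0.088 for Fzd3 (-0.31 to 0.49) and -0.41 for Sfrp2 (-0.98 to 0.17). Each of these 7 intervals holds 0. That of Dkk2 lies above 0 before adjustment over all genes and did not pass after it, so no called member was shown to respond differently between the fractions. Of the 31 differences 24 were above 0, with a median of 0.13 against 0.060 over all genes. With that median most genes lay above 0 too, and their share was not counted.

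**Figure D4:**
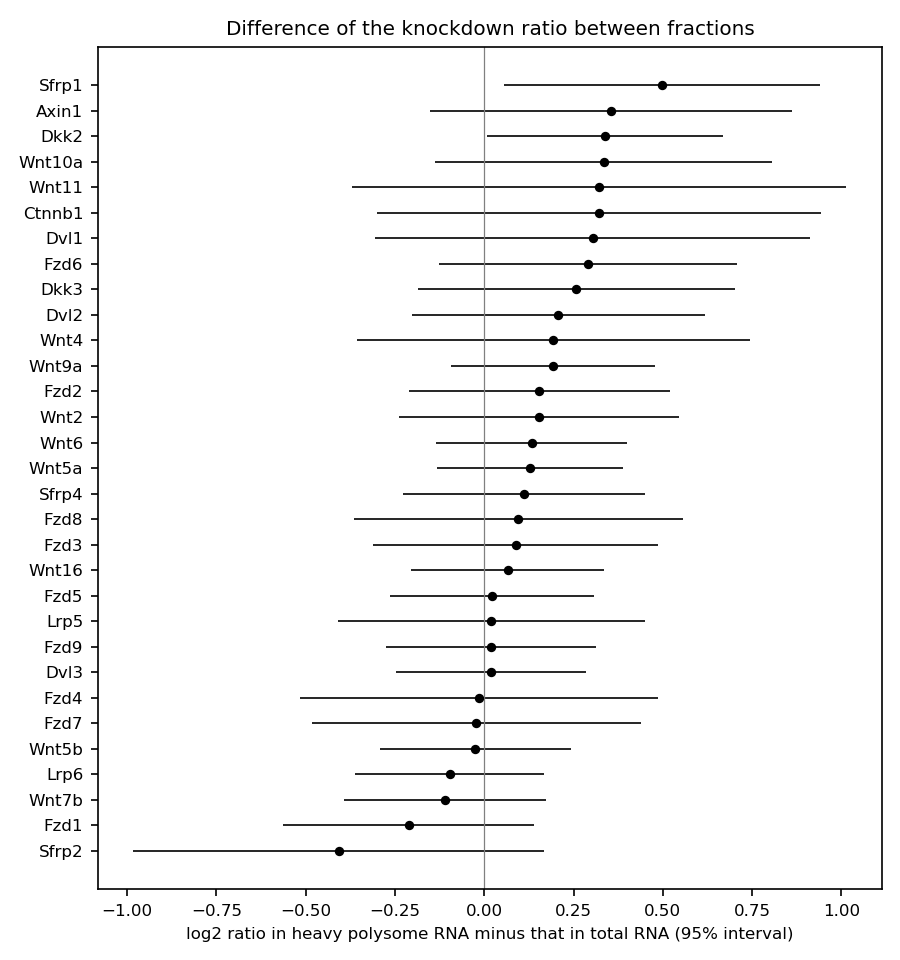
Difference of the log2 knockdown ratio, heavy polysome minus total RNA, with its 95% interval from limma, for the 31 tested members in order of size. The intervals of Sfrp1 and Dkk2 lie above 0 before adjustment, and those of the other 29 include 0.

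The level of a transcript in heavy polysome RNA against total RNA, here called polysome enrichment, was compared within each siRNA over different arrays, as log2 differences of normalised signal. Since equal RNA mass was labelled, it is relative to the other transcripts of the fraction. By limma 0 of 31 members passed in control siRNA cells (2.33% of all genes did, 0.0138% higher and 2.31% lower) and 0 in Eif4g3 siRNA cells (0.145%). Wnt2 was lowest in control siRNA cells, with log2 Cy3 levels of 10.90, 10.94, 10.55 and 10.30 on arrays 1 to 4 of total RNA, then 9.44, 9.73, 10.23 and 9.57 on the 4 of heavy polysome RNA. The 4 heavy polysome levels were all below the 4 total RNA levels (-0.93, 95% interval -1.43 to -0.43, adjusted p = 0.0697), and in Eif4g3 siRNA cells the difference was -0.78 (-1.38 to -0.18, adjusted p = 0.292). Dvl1 (-0.48) and Wnt4 (-0.46) followed in control siRNA cells, and Fzd1 (-0.53) and Wnt7b (-0.43) in Eif4g3 siRNA cells. The second Dvl1 probe, A_51_P504503, well above background in 15 of 16 readings, did not show this. It gave -0.0011 in control and 0.44 in Eif4g3 siRNA cells.

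At the other end stood Sfrp1, Ctnnb1 and Dkk3. Sfrp1 had log2 Cy5 levels of 10.89, 10.95, 11.17 and 11.30 on arrays 1 to 4 of total RNA, then 13.18, 12.83, 11.67 and 11.71 on the 4 of heavy polysome RNA, a difference of 1.27 in Eif4g3 siRNA cells (0.49 to 2.04, adjusted p = 0.190). In control siRNA cells its Cy3 levels were 11.51, 11.58, 11.62 and 11.41 and 12.66, 13.12, 11.80 and 11.62, a difference of 0.77 (adjusted p = 0.336). All 4 heavy polysome levels lay above the 4 total RNA levels in Cy5 only. A second Sfrp1 probe, A_52_P564706, well above background in 15 of 16 readings, gave smaller differences of 0.50 (Cy5) and 0.30 (Cy3), with levels of the fractions that overlap in both dyes. Ctnnb1 was at 0.77 in control and 1.09 in Eif4g3 siRNA cells, with Cy3 levels from 9.86 to 12.46 in total RNA, the widest spread of the 3. Its second probe, A_52_P424585, well above background in all 16 readings, gave 0.38 and 0.33. Its dim probe A_52_P472397 went the other way in both dyes. The mean fell from 7.00 in total to 6.01 in heavy polysome RNA in Cy3, and from 7.31 to 6.18 in Cy5. Dkk3 was at 0.43 and 0.69. The remaining members lay between -0.32 (Fzd1) and 0.29 (Fzd8) in control siRNA cells. The enrichment in Eif4g3 siRNA cells minus that in control siRNA cells equals the difference of ratios given above.

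**Figure D5:**
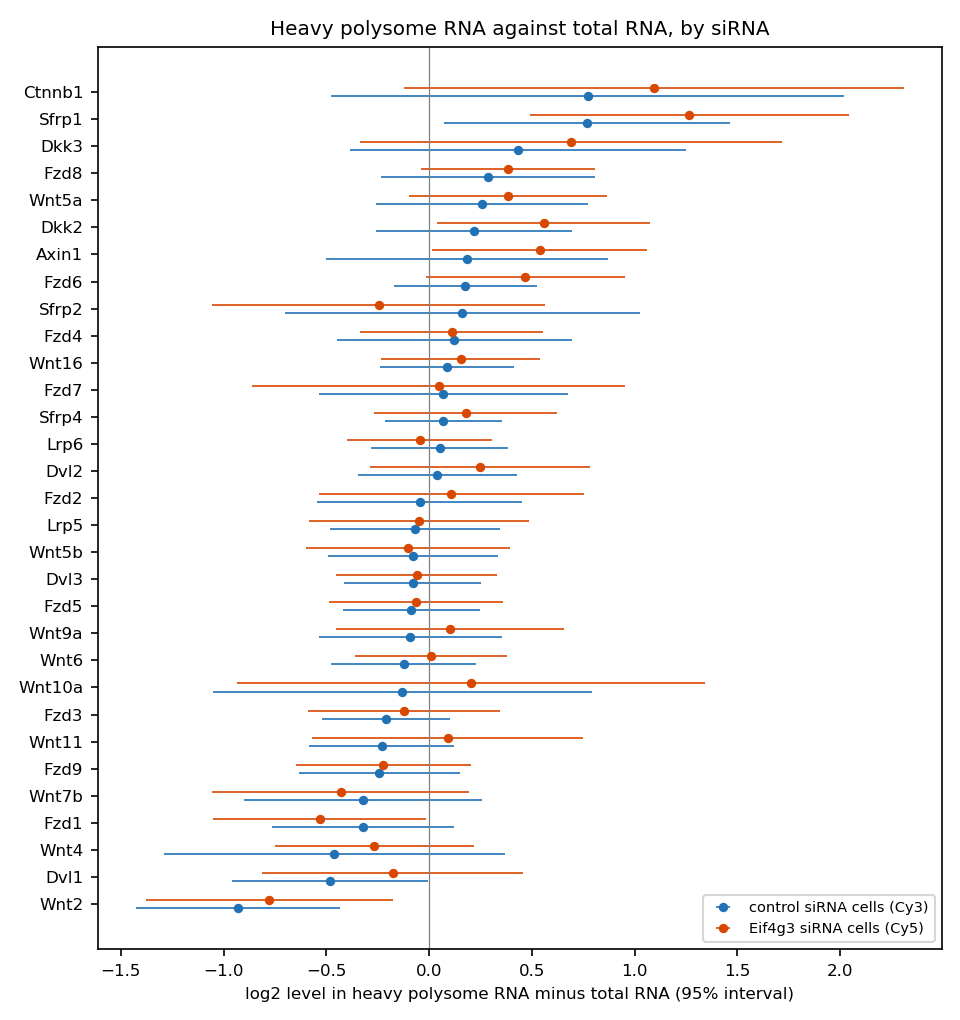
Log2 level in heavy polysome RNA minus that in total RNA, with 95% intervals from limma, for the 31 tested members in control siRNA cells (Cy3, blue) and Eif4g3 siRNA cells (Cy5, orange). Wnt2 is lowest for both siRNAs, and Ctnnb1 and Sfrp1 are highest.

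Other genes of the pathway, in 4 lists that hold none of the tested members, were read in the same fits. Of 19 tested genes of Wnt secretion, co-reception and surface regulation, 1 rose in total RNA, 2 rose in heavy polysome RNA and 0 fell (median 0.064 and 0.055), which is 5.26% and 10.53% of the list, against 4.38% and 8.91% of all genes. Lgr4, a receptor of R-spondins that strengthens Wnt signalling, rose in both (0.93 ± 0.25, adjusted p = 0.00644, and 0.69 ± 0.17, adjusted p = 0.00791). Cthrc1, a secreted protein of fibroblasts, rose in heavy polysome RNA (0.64 ± 0.32, adjusted p = 0.0250). Of 37 genes of the destruction complex and nuclear cofactors, the total RNA fit had 1 higher and the heavy polysome fit 2 higher and 2 lower (median -0.030 and 0.046), or 2.7% and 10.8% called. Lef1, a transcription factor that binds beta-catenin, rose in both (0.78 ± 0.19 and 0.64 ± 0.33, adjusted p = 0.0158 and 0.0178). In heavy polysome RNA, Ctnnbip1, an inhibitor of beta-catenin, rose (0.53 ± 0.37, adjusted p = 0.0377), while the destruction complex scaffold gene Apc (-0.58 ± 0.20, adjusted p = 0.0209) and the co-repressor gene Tle2 (-0.46 ± 0.11, adjusted p = 0.0170) fell.

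Of 31 genes of the planar polarity and calcium branch, the total RNA fit had 2 lower and the heavy polysome fit 1 higher and 2 lower (median -0.080 and 0.015). These are 6.45% and 9.68% of the list, against 4.38% and 8.91% of all genes. Ppp3ca, the catalytic subunit of calcineurin, fell in both (-0.82 ± 0.28 and -0.70 ± 0.14, adjusted p = 0.00963 and 0.00766). The kinase gene Nlk fell in total RNA (-0.59 ± 0.25, adjusted p = 0.0341). In heavy polysome RNA the polarity gene Vangl1 rose (0.41 ± 0.25, adjusted p = 0.0457) and the polarity gene Prickle1 fell (-0.45 ± 0.12, adjusted p = 0.0140). Of 23 genes known as targets of beta-catenin, the total RNA fit had 2 higher and 2 lower and the heavy polysome fit 3 higher and 1 lower (median 0.077 and 0.22). These are 17.4% and 17.4% of the list, against 4.38% and 8.91% of all genes. Lef1 is counted here and among the nuclear cofactors. Besides Lef1, the survival and mitosis gene Birc5 rose in both (0.59 ± 0.15 and 0.75 ± 0.23, adjusted p = 0.0204 and 0.00497) and the growth factor gene Fgf18 in heavy polysome RNA (0.74 ± 0.34, adjusted p = 0.0480). The transcription factor gene Twist1 fell in both (-0.58 ± 0.14 and -0.49 ± 0.14, adjusted p = 0.0129 and 0.0132) and the cyclin D1 gene Ccnd1 in total RNA (-0.55 ± 0.12, adjusted p = 0.0495). Targets went both ways in each fraction. No test of a whole list was made.

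With 1 array left out, the calls for Lgr4 in total RNA, Ppp3ca in both fractions and Birc5 in heavy polysome RNA passed in every fit. Under median centring in place of loess the total RNA ratios of Lef1 (-0.086) and Birc5 (-0.31) turned below 0 but stayed above the median of all genes (-0.78). Without heavy polysome array 4 the heavy polysome calls for Lgr4 (0.0518), Cthrc1 (0.0907), Lef1 (0.0907), Apc (0.0849), Tle2 (0.0683), Prickle1 (0.0590) and Twist1 (0.0649) were lost. Lef1 (0.0782), Tle2 (0.0583), Prickle1 (0.0690) and Twist1 (0.0620) were also lost without heavy polysome array 2, and Cthrc1 (0.0674) and Apc (0.0609) without array 3. In total RNA, Lef1 (0.0596 to 0.0848) and Birc5 (0.0789 to 0.0864) were lost without total RNA array 1, 2 or 3 and Twist1 (0.0607 to 0.0750) without array 2 or 3. Nlk (0.0618 to 0.144) and Ccnd1 (0.0797 to 0.164) needed every total RNA array and arrays 2 and 4 of heavy polysome RNA. The heavy polysome call for Ctnnbip1 failed with array 1, 2 or 3 of total RNA, or array 1, 3 or 4 of heavy polysome RNA, left out (0.0522 to 0.0989), that for Fgf18 with array 2 or 3 of total RNA, or array 1, 2 or 4 of heavy polysome RNA, left out (0.0627 to 0.161), and that for Vangl1 with any 1 array but array 3 of heavy polysome RNA left out (0.0506 to 0.170). With heavy polysome RNA fitted alone, or with its arrays 2 and 4 as 1 replicate, the calls there for Cthrc1, Lef1, Ctnnbip1, Apc, Tle2, Prickle1, Vangl1, Fgf18 and Twist1 were lost, and with the deposited ratios those for Ctnnbip1 (0.0755) and, in total RNA, Nlk (0.0562) and Ccnd1 (0.0513). With no filter on dim probes, Nlk (0.0512) and Ccnd1 (0.0752) in total RNA and Ctnnbip1 (0.0564), Fgf18 (0.0910) and Vangl1 (0.0527) in heavy polysome RNA were lost, and Nlk (0.0616) and Ccnd1 (0.0799) were lost in total RNA with heavy polysome arrays 2 and 4 as 1 replicate. Vangl1 was also lost with both channels above background required on all 8 arrays (0.0658). The mean of all tested Vangl1 probes was 0.10 (adjusted p = 0.427).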

How the data were processed

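RNA of lymph node stromal cells, 200 ng per labelling, was hybridised to 8 2-colour arrays, 4 per fraction. Per the file headers, the deposited scanner tables hold spot and background signals as intensity and the log10 ratio of Cy5 over Cy3, made by Feature Extraction 10.7.3.1 (protocol GE2_107_Sep09) on 7 arrays and 10.5.1.1 (GE2_105_Dec08) on total RNA array 2. Agilent Feature Extraction is also the tool named by the submitters' processing notes. The deposited value table holds log2 of Cy5 over Cy3, within 0.01 of the processed ratio for at least 99.8% of probes per array, with array medians from -0.21 to 0.30. Probe coordinates are on mm8, per the file headers, and exons and UTRs were not analysed here.

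From these, mean signals were corrected with normexp (offset 50), which pulls ratios of dim probes toward 0, and normalised by loess (span 0.3), with control and marked spots at weight 0. Spots of a probe were averaged, and the brightest tested probe stood for its gene. A gene was tested where, in either fraction, its probe was well above background in Cy3 or Cy5 on 3 or more of 4 arrays, with 3 or more values per fraction. No spot was saturated, and 37.6% to 57.5% of probes per channel and array were well above background. The number of arrays limits the precision. RefSeq records of GRCm38.p6 named 33026 of 41174 probes (80.2%). limma 3.58.1 in R 4.3.3 fitted 1 coefficient per fraction over 8 arrays, with two-sided tests and Benjamini-Hochberg adjustment. Polysome enrichment used Cy3 or Cy5 values after Aquantile normalisation. Each of the 5 slides held arrays of 1 fraction, so slide and fraction cannot be told apart, and a random block for slide was tried.

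Every tested member is named. All 4 values of a fraction are given for members past the threshold, for the 3 with the largest mean in each fraction, and for Lrp5, Lrp6, Ctnnb1 and Axin1. For enrichment the 3 highest and 3 lowest members are named, and of other pathway genes those past the threshold, at most 6 per list. Members and lists were chosen with earlier results of these data known. Alternatives were the deposited log2 ratios, median centring, other filters, the mean of all tested probes, each array left out, slide as a block, each fraction alone, the replicate number as a block, arrays 2 and 4 of heavy polysome RNA as 1, and the 75th percentile in place of Aquantile.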

Additional observations from a re-analysis of the deposited data

Results flagged for a closer look

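In each fraction, the highest or lowest array of a member was set against the other 3, and 6 of 62 such groups held an array far from the rest, where chance gives about 1 in 20. Ctnnb1 on heavy polysome array 1 was at 0.87, with the other 3 arrays between -0.42 and -0.31. Fzd4 was at -0.99 on total RNA array 4 and at -0.70 on heavy polysome array 1. Dvl1 was at -0.96 on total RNA array 4 and at -0.13 on heavy polysome array 3, with the other arrays of both fractions above 0. Fzd5 was at 0.45 on total RNA array 4, above 3 values between 0.14 and 0.15. The second tested probes of Dvl1 and Fzd5 did not show these: on total RNA array 4 they were at -0.028 and -0.022, and the Dvl1 probe was at 0.40 on heavy polysome array 3. The second Ctnnb1 probe was at 0.15 on heavy polysome array 1, with the other 3 arrays between -0.53 and -0.080. Each of the 6 far values stood on 1 of 3 arrays (array 4 of total RNA, arrays 1 and 3 of heavy polysome RNA), the ones with the lowest correlation with the others of their fraction. The source of these values was not tested.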

How the results depend on the processing

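Over the alternatives that could be fitted, no named member reversed its direction in a called comparison. Most of these fits could not have reversed it. Each called member had the same sign on every array of its called fraction, so leaving out or averaging arrays keeps that sign. Other filters and fitting a fraction alone left the values unchanged. That left mainly the deposited ratios, median centring and, for Fzd3, the mean of its tested probes. Of the other pathway genes, Birc5 (-0.31) and Lef1 (-0.086) turned below 0 in total RNA under median centring, where the median of all genes was -0.78. In total RNA 1 member passed (634 of all genes). The count was 6 with the deposited ratios (1483 of all genes), 0 under median centring (0) and 2 with all tested probes of a gene averaged (841). It was 5 with slide as a random block (1474) and 0 with heavy polysome arrays 2 and 4 as 1 replicate (298). With 1 array left out it was 0 to 4 (51 to 1317). In heavy polysome RNA 7 members passed (1290 of all genes). The count was 0 under median centring (0), 11 with slide as a block (2592) and 2 with the fraction fitted alone (378). With arrays 2 and 4 as 1 it was 3 (434), and with 1 array left out 2 to 7 (337 to 1536). The count of the difference and of both enrichments was 0 in every fit.

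Over all genes, 634 passed in total RNA, against 1483 with the deposited ratios, 0 under median centring, 1474 with slide as a block, 298 with arrays 2 and 4 as 1, and 51 to 1317 with 1 array left out. In heavy polysome RNA 1290 passed, against 2046, 0, 2592 and 434, with 378 for the fraction alone and 337 to 1536 with 1 array left out. For enrichment in control siRNA cells 337 genes passed, against 181 with the 75th percentile, 135 with arrays 2 and 4 as 1, and 75 to 335 with 1 array left out. In Eif4g3 siRNA cells 21 passed, against 138 with the 75th percentile, 45 with both channels above background on all arrays, 43 with the mean of probes, 77 with slide as a block, 9 with no filter, 3 with arrays 2 and 4 as 1, and 3 to 77 with 1 array left out.

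Replicate numbers showed no clear pairing of the samples between fractions. The correlation of deviations between same-numbered arrays was -0.016, 0.17, -0.11 and -0.30 for ratios, where array 2 alone correlated best with its own number. It ran from -0.32 to 0.43 for Cy3 levels (array 3 alone) and from -0.00097 to 0.25 for Cy5 levels (arrays 2 and 3). With arrays this noisy, such correlations cannot exclude that same-numbered samples were paired. With the replicate number as a block, 0 members passed in the difference and in both enrichments, and over all genes 0, 63 and 18 did. Signal limits the rest: 15 members were too dim to test.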
